A study of Mus musculus with 12 samples.

Results

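Methionine cycle and transsulfuration genes were described in mouse liver and in spontaneous liver tumors. The 10 members, Mat1a, Mat2a, Gnmt, Pemt, Ahcy, Bhmt, Bhmt2, Mtr, Cbs, and Cth, were chosen by their symbols, 10 of 24421 in the count tables. Symbols were listed after Cth and Gnmt had been seen to be lower in p21+/Tert tumors than in p21+/Tert livers, so every value of a member in that contrast is a description without a test. Poly(A) RNA had been sequenced from 6 tumors and 6 non-tumoral livers of mice on a C57BL/6 background kept on a standard diet until old age. The 4 p21+/Tert mice express Tert, the reverse transcriptase of telomerase, from the Cdkn1a (p21) promoter, and the 2 p21+/TertCi mice express a catalytically inactive Tert from the same promoter. All livers came from these tumor-bearing mice, so no library of a mouse without the allele or without a tumor is compared. Each mouse gave 1 tumor and 1 liver and is named here by its tumor. By the mutations the study reports, T-HCC662 and T-HCC663 carry activated Ctnnb1, T-HCC941 carries mutated Egfr, TCi-HCC981 carries mutated Hras, and TCi-HCA984 and T-HCA992 carry none of these. In the study's histology, T-HCC662, T-HCC941, and TCi-HCC981 are listed as hepatocellular carcinomas and T-HCA992 and TCi-HCA984 as adenomas. T-HCC663 is listed as an adenoma there, although its name marks a carcinoma. Values by mouse keep this order: T-HCC662, then T-HCC663, T-HCC941, and T-HCA992 of p21+/Tert, then TCi-HCC981 and TCi-HCA984 of p21+/TertCi. The liver set beside T-HCC662 bears an animal number of no tumor on its label and was matched to that mouse by elimination.

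The methionine cycle turns methionine into S-adenosylmethionine (SAM), the methyl donor of most methylation reactions. Methyl transfer leaves S-adenosylhomocysteine, which is split to homocysteine, and homocysteine is either methylated back to methionine or passed by transsulfuration to cysteine, a building block of glutathione. The liver carries most of this flux, and it expresses several of the enzymes far above other organs. A change from the liver form of methionine adenosyltransferase (Mat1a) toward the form of other tissues (Mat2a) is a long known feature of dedifferentiated and malignant liver.

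Library totals ranged from 14571716 to 26170661 counts. The class labels were checked with Glul and Axin2, targets of β-catenin. Glul was 9494 and 10316 CPM (counts scaled to a library of 1000000) in T-HCC662 and T-HCC663, 1092 to 1829.7 in the livers, and 140.3 to 439 in the other 4 tumors, and Axin2 followed the same order. Tert was 10.5 to 17.3 CPM in livers and 4.69 to 26.1 CPM in tumors, and Cdkn1a 1.62 to 51.1 and 32.9 to 81 CPM, although Tert counts do not tell the alleles apart. Ddx3y of the Y chromosome was at 36.3 to 88.5 CPM and Xist at no more than 1.46 CPM in all 12 libraries. The 7 hepatocyte markers were detected in every library, with summed levels of 57558 to 80769 CPM in livers, 28596 to 50324 in Ctnnb1-mutated tumors, and 136335 to 150581 in the other tumors. They did not move together. In the other tumors Alb, at 47664 to 72143 CPM, lay above its liver range of 9546 to 31957 CPM, as did Trf. Apoc3 and Ttr, at 1230 to 2733 and 1669 to 4418 CPM there, reached below their liver ranges of 2164 to 4028 and 3511 to 6843 CPM. The 5 periportal markers summed to 3355 to 6405 CPM in livers, 237 to 373 in Ctnnb1-mutated tumors, and 863 to 3072 in the others. The 7 pericentral markers, Glul and Axin2 among them, summed to 6198 to 10256, 20359 to 24309, and 480.3 to 2526 CPM. Markers of other cells summed to 50.9 to 134 CPM in livers and 17.8 to 1064 CPM in tumors for bile duct cells (5 genes, 2 of them at 0 counts in a tumor), 43.8 to 232 and 23.6 to 355 CPM for stellate cells and fibroblasts (6 genes), 53.1 to 165 and 50.8 to 256 CPM for endothelial cells (6 genes), and 106 to 977 and 103 to 727 CPM for macrophages (6 genes). The 1064 CPM for bile duct cells, in T-HCA992, held 1037 CPM of Spp1 and 21.9 CPM of Sox9. Krt7, Krt19, and Epcam were at 1.22, 1.00, and 2.58 CPM in that tumor. T cell and B cell markers reached no more than 29.0 and 128 CPM. The part of these shifts in the results that follow was not tested. In bulk tissue, fewer cells of a type and less RNA per cell cannot be told apart.

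The regulatory sequence before the start of the genes was read for 8 of the 10 members, from RefSeq on GRCm38.p6. Windows of 100 bases are shown for Gnmt and Cbs, which did not overlap between all tumors and all livers, and for Mat2a, which differed between tumor classes. They lie upstream of every annotated exon and are written 5′ to 3′ on the minus strand, which all 3 genes use, at chr17:46729169-46729268 (Gnmt), chr17:31637239-31637338 (Cbs), and chr6:72439559-72439658 (Mat2a).
Gnmt: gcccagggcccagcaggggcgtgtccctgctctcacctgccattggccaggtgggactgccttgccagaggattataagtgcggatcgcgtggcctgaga
Cbs: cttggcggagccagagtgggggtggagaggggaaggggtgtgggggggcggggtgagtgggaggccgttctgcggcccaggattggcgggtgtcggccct
Mat2a: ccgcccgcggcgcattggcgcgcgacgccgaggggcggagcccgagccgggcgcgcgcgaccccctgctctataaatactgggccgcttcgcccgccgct
Pemt, the other member that differed between tumor classes, has 2 RefSeq starts, and the stretch upstream of the second, at chr11:60037111-60037140 on the minus strand, holds the only match among the members to the 4 motifs searched. This stretch lies outside exons but inside the annotated gene, whose outermost start is at chr11:60046489. Its capitals mark the TCF/LEF core ATCAAAG, read on the opposite strand, at -124 to -118 from that start.
Pemt: tcccttttatcCTTTGATgtgtatggtaca
The motifs were TCF/LEF (ATCAAAG), HNF4A (CAAAGTC), the antioxidant response element (TGACNNNGC), and the amino acid response element (TGATGNAAN), on both strands of the 250 bases before the start. The first 2 share the letters CAAAG. Of 32536 promoters, 3.21% held the TCF/LEF core, 3.87% the HNF4A core, 10.2% the antioxidant response element, and 3.38% the amino acid response element. A match describes letters only, and so does its absence.

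Per length of exon, the members spanned a wide range in the 6 livers. Gnmt had a mean of 1209.8 ± 544 CPM per kb (SD, n = 6), followed by Mat1a (1144 ± 209), Bhmt (757 ± 408), Ahcy (282 ± 91.9), Cth (142 ± 43.7), Pemt (135 ± 11.6), Bhmt2 (117 ± 38.9), Cbs (75.5 ± 19.5), Mat2a (28.4 ± 4.59), and Mtr (0.323 ± 0.133). From Gnmt down to Cbs, each neighbour overlapped the next in range over the livers. Cbs and Mat2a did not overlap, nor did Mat2a and Mtr. All values below are CPM of single genes without division by length, and all 10 members passed the filter on low counts.

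**Figure D1:**
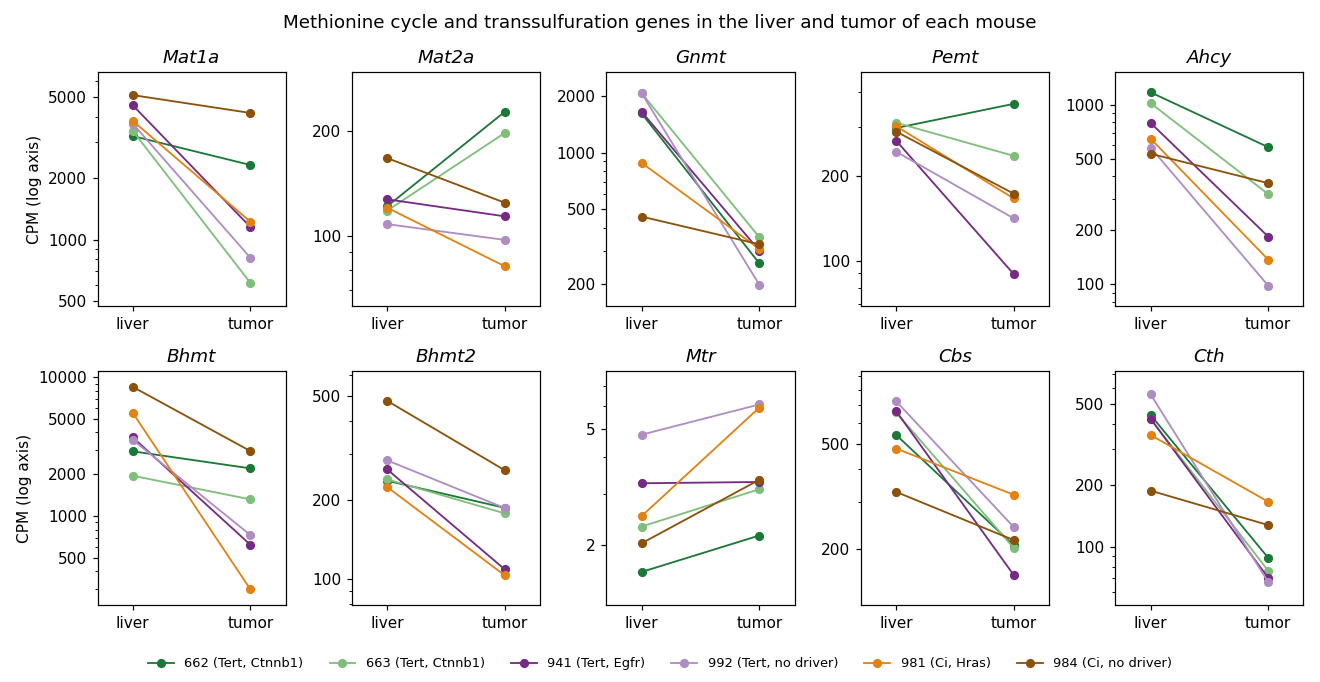
CPM (log axis) of the 10 members in the liver and the tumor of each mouse, with 1 line per mouse coloured by mouse and labelled by allele and driver. Cth, Cbs, and Gnmt lie lower in all 6 tumors than in all 6 livers, whereas Mat2a is higher than in the own liver in T-HCC662 and T-HCC663 only. The share of all genes that lie in these ways was not counted.

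The transsulfuration enzymes were lower in every tumor than in every liver. The share of all genes that separate in this way was not counted, so nothing is read from the separation. Cth, cystathionine γ-lyase, which releases cysteine from cystathionine (chr3:157894248-157925077, minus strand), stood at 441, 423, 423, and 557 CPM in the 4 p21+/Tert livers. It was 88.3, 76.3, 70.5, and 67.3 CPM in their tumors. The 4 tumors kept within a narrow band, 75.6 ± 9.28 CPM (SD, n = 4), whatever their driver. In the p21+/TertCi mice, Cth was 352 and 188 CPM in liver and 166 and 128 CPM in tumor. These livers lay below all p21+/Tert livers and these tumors above all p21+/Tert tumors. Hence, the difference from the own liver on the log2 scale ran from -3.05 to -2.32 in p21+/Tert mice and was -1.08 and -0.56 in p21+/TertCi mice.

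Cbs, cystathionine β-synthase, which commits homocysteine to transsulfuration (chr17:31608894-31637238, minus strand), was 539, 656, 663.01, and 723 CPM in the p21+/Tert livers and 207, 202, 159.6, and 242 CPM in the tumors of the same mice. In the p21+/TertCi mice it was 479 and 329 CPM in liver and 321 and 216 CPM in tumor. Cbs was lower than in the own liver in 6 of 6 mice, and the highest tumor, TCi-HCC981, at 321 CPM, lay just under the lowest liver, that of TCi-HCA984.

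Gnmt, glycine N-methyltransferase, the abundant liver enzyme that consumes surplus SAM (chr17:46725664-46729168, minus strand), was 1619, 2073, 1651, and 2071 CPM in the p21+/Tert livers. It was 258, 356, 301, and 199 CPM in their tumors. The p21+/TertCi livers differed from each other and from these, at 883 and 457 CPM, whereas the p21+/TertCi tumors, at 308 and 326 CPM, lay inside the range of the p21+/Tert tumors. Gnmt was lower in the tumor than in the own liver in 6 of 6 mice, with log2 differences from -3.38 in T-HCA992 to -0.49 in TCi-HCA984.

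Across all genes, the fit of p21+/Tert tumors against livers (edgeR's quasi-likelihood test with Benjamini-Hochberg adjustment, threshold 0.05) called 6.49% of 15182 genes. The 3 members among these, Cth, Cbs, and Gnmt, had log2 fold changes of -2.63 (SE 0.24), -1.69 (SE 0.24), and -2.75 (SE 0.30), which the choice of members had fixed in part and which are no test of them. With all 6 tumors against all 6 livers, 10.7% of 13822 genes were called, 6.77% as higher and 3.91% as lower in tumors, and 4 members were called, all as lower, Ahcy being the fourth. Ahcy was not among them once the liver of T-HCC662, T-HCC663, or T-HCC941, or the tumor T-HCC941, T-HCA992, or TCi-HCC981, was left out. That fit holds the libraries of the p21+/Tert contrast, so nothing is read from these counts. With the mouse as a block, the all-tumor fit called 15.9% of all genes and 7 members, adding Mat1a, Bhmt, and Bhmt2.

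The genes most like Cth and Gnmt over the 12 libraries were sought among 8851 genes with a mean of at least 10 CPM, as a description over libraries that share the liver and tumor split. The 5 highest Pearson r of log2(CPM + 1) with Cth belonged to Pecr (0.97), a peroxisomal enoyl-CoA reductase, Cbs (0.97), Susd4 (0.95), Aldh1l1 (0.94), which oxidizes 10-formyltetrahydrofolate, and Prodh2 (0.94), which oxidizes hydroxyproline. Those with Gnmt belonged to Mup8 (0.95), a major urinary protein of a family with near-identical copies, the urea cycle genes Otc (0.94) and Ass1 (0.94), Gm5424 (0.94), and Pipox (0.94), a sarcosine oxidase. Gm5424 and Ass1 had almost the same counts in every library, such as 8049 and 8050 in the liver of T-HCC662, and are not told apart. Among the members themselves, Cth, Cbs, and Gnmt correlated with each other at 0.93 to 0.97, Bhmt correlated with Bhmt2 at 0.90, and Mat2a had no r above 0.52 with any other member. Pecr, at the head of the Cth list, was 120.3 to 147 CPM in the p21+/Tert livers, 141 and 66.1 CPM in the p21+/TertCi livers, and 34 to 55.6 CPM in the tumors.

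Whether these genes also differ in mice with catalytically inactive Tert was examined in the p21+/TertCi libraries. The contrast that chose the members did not use these libraries, but the choice was made with earlier results of these data known. The fit also shared its estimate of the spread with the p21+/Tert libraries, so it is not independent of the choice. No gene passed the adjusted threshold among 15182 (0%), so none of the members did. At an unadjusted p under 0.05 the fit named 10.7% of all genes and 3 of the 10 members, and DESeq2 called 2.69% of the genes it adjusted and no member. The members named were Cth (log2 fold change -0.89, SE 0.33), Gnmt (-1.09, SE 0.40), and Bhmt (-2.13, SE 0.93), with edgeR's adjusted p = 0.397, 0.397, and 0.455. Cbs had a log2 fold change of -0.61 (SE 0.33, edgeR's adjusted p = 0.545). Of the 10 members, 9 had a negative estimate, with a median of -0.85 against -0.03 over all genes, and 6 had both tumors below both livers, beside 22.2% of all genes tested. Mtr alone had a positive estimate (1.00, SE 0.61).

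The 4 p21+/Tert livers and the 2 p21+/TertCi livers were set side by side outside the tumor. The p21+/Tert livers belong to the contrast that chose the members, so the members' values are a description here too. No gene was called (0% of 15182), and an unadjusted p under 0.05 was given to 4.98% of all genes and to 3 of the 10 members. These were Gnmt (log2 fold change 1.45, SE 0.37), Cth (0.76, SE 0.29), and Cbs (0.66, SE 0.29), each higher in all 4 p21+/Tert livers than in both p21+/TertCi livers, as were 9.37% of all genes tested. DESeq2 called 0.315% of the genes it adjusted, Gnmt among them, from which nothing is read. Bhmt pointed the other way, with 2926, 1951, 3685, and 3539 CPM against 5532 and 8517 CPM and a log2 fold change of -1.23 (SE 0.75). Of the 10 members, 5 had a positive and 5 a negative estimate.

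**Figure D2:**
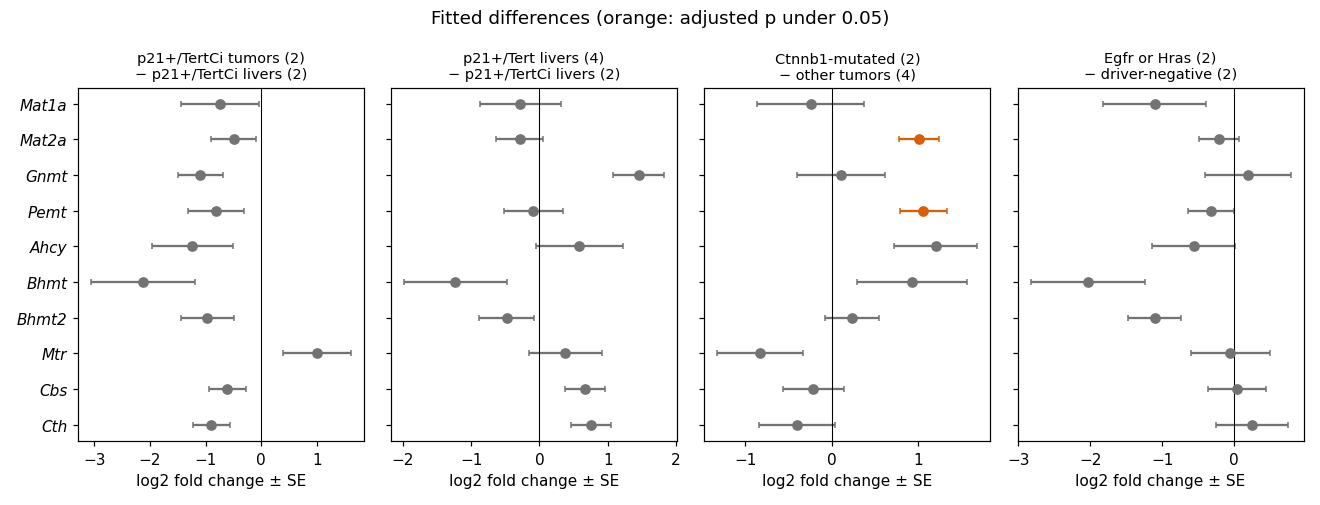
Log2 fold change with its standard error for each member in 4 comparisons, the second of which shares its p21+/Tert livers with the choice of members, with the number of libraries in parentheses and the second group subtracted from the first. Mat2a and Pemt pass the adjusted threshold between tumor classes, and no member does in the other panels.

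SAM synthesis was compared next. Mat1a, the liver form of methionine adenosyltransferase (chr14:41105035-41124412, plus strand), was 3217, 3411, 4555, and 3697 CPM in the p21+/Tert livers and 3820.4 and 5112 CPM in the p21+/TertCi livers. In the 6 tumors, in the order of mice given above, it was 2321, 613, 1151, 813, 1222, and 4177 CPM. The tumors thus spread far more than the livers, and TCi-HCA984 lay within the range of the livers. The own liver was higher in 6 of 6 mice, with log2 differences from -2.48 in T-HCC663 to -0.29 in TCi-HCA984.

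Mat2a, the catalytic subunit of the form found in other tissues (chr6:72432799-72439558, minus strand), was 122, 118, 128, 108, 121, and 167 CPM in the 6 livers. It was 227 and 198 CPM in T-HCC662 and T-HCC663, and 114, 97.6, 82, and 125 CPM in the other 4 tumors. Both Ctnnb1-mutated tumors exceeded every liver and every other tumor, a separation whose share over all genes was not counted. Relative to the own liver they had log2 differences of 0.90 and 0.74, whereas the other 4 tumors had negative differences, from -0.56 to -0.15. Exons of Mat2a overlap those of the antisense gene Particl over 508 bases, and strand use in the counting is not given in the sources used here. Particl, however, had 41 to 225 counts where Mat2a had 1597 to 5045. Gm9523, which is not among the counted symbols, matches the Mat2a transcript at 95.21% over 1065 bases.

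The ratio of the Mat2a to the Mat1a counts compares both genes within a library and needs no scaling between libraries. Its log2 ran from -5.16 to -4.72 in the 6 livers, where Mat1a had 26.4 to 35.7 counts for each count of Mat2a. It was -3.35 and -1.63 in T-HCC662 and T-HCC663, -3.34 in T-HCC941, -3.06 in T-HCA992, -3.90 in TCi-HCC981, and -5.07 in TCi-HCA984. In 5 of 6 tumors the ratio was above that of every liver, and in TCi-HCA984 it lay within their range. In T-HCC663 only 3.10 Mat1a counts stood against each Mat2a count. The higher ratio of T-HCC941, T-HCA992, and TCi-HCC981 came with lower Mat1a and no higher Mat2a than in the own liver, and that of the Ctnnb1-mutated tumors with lower Mat1a and higher Mat2a.

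**Figure D3:**
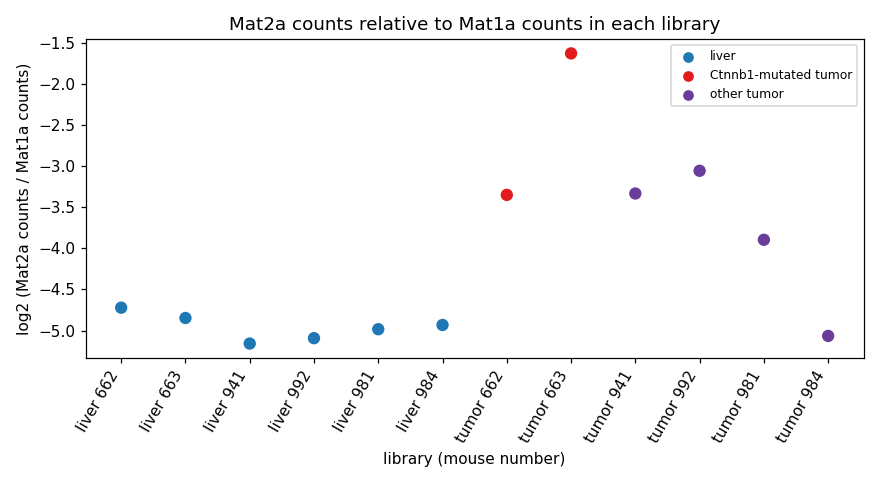
Log2 ratio of Mat2a to Mat1a counts in each of the 12 libraries, named by mouse, with livers in blue, Ctnnb1-mutated tumors in red, and other tumors in purple. The livers lie between -5.16 and -4.72, and T-HCC663 is the highest at -1.63.

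Between tumor classes, Ctnnb1-mutated tumors were set against the mean of the other 2 classes in a model of all 12 libraries. This comparison called 12.5% of 15182 genes, 6.76% as higher and 5.72% as lower, and 2 of the 10 members, both higher, were among them. Mat2a was higher by 1.02 on the log2 scale (SE 0.23, edgeR's adjusted p = 0.0179), and Pemt by 1.07 (SE 0.27, adjusted p = 0.0287). With the mouse as a block, which compares changes from the own liver, neither was called, and the estimates were 1.14 for Mat2a (SE 0.27, adjusted p = 0.0758) and 0.94 for Pemt (SE 0.36, adjusted p = 0.219). Both Ctnnb1-mutated tumors are p21+/Tert, and among the p21+/Tert tumors alone the log2 differences were 1.01 (adjusted p = 0.0614) for Mat2a and 1.37 (adjusted p = 0.0279) for Pemt. Without T-HCC662 neither was called, with log2 differences of 0.90 (adjusted p = 0.123) and 0.72 (adjusted p = 0.248). Without T-HCA992 neither was called either (adjusted p = 0.0543 and 0.0769), and without TCi-HCC981 or T-HCC941 Mat2a (adjusted p = 0.0570) or Pemt (adjusted p = 0.0550), respectively, was lost.

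Pemt, phosphatidylethanolamine N-methyltransferase, which makes phosphatidylcholine with methyl groups from SAM (chr11:59970614-60046489, minus strand), was 297, 310.0, 268, and 244 CPM in the p21+/Tert livers and 301 and 288 CPM in the p21+/TertCi livers. It was 362 and 236 CPM in T-HCC662 and T-HCC663 and 89.5, 141, 166, and 173 CPM in the other 4 tumors. Of the Ctnnb1-mutated tumors, T-HCC662 lay above and T-HCC663 just under the range of the livers, and the other 4 tumors lay far below it. Cth, Cbs, and Gnmt had log2 differences of -0.40 (SE 0.44), -0.21 (SE 0.35), and 0.11 (SE 0.51) between these classes. The p21+/Tert tumors belong to the contrast that chose the members, so the values of these genes are a description here too. Among the p21+/Tert tumors alone, the estimates of Cth and Cbs turned to 0.26 and 0.019. The intervals of these differences are wide, so equal levels were not shown.

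Ahcy, which splits S-adenosylhomocysteine (chr2:155059310-155074497, minus strand), was 1174, 1022, 793, and 578 CPM in the p21+/Tert livers and 648 and 534 CPM in the p21+/TertCi livers. It was 581, 318, 184, and 98.3 CPM in the p21+/Tert tumors and 137 and 366 CPM in the p21+/TertCi tumors. Each tumor was below its own liver, although T-HCC662 stood above the lowest livers. Ahcy had a log2 difference of 1.21 between Ctnnb1-mutated and other tumors (SE 0.48, edgeR's adjusted p = 0.119), and without TCi-HCA984 it was called (1.83, adjusted p = 0.0306). Its counts are uncertain, since Gm4737 matches its transcript at 99.71% over 2083 bases and was given 64.2% to 202% as many counts. The summed CPM of Ahcy and Gm4737 was 1177 to 2027 in livers and 297 to 1045 in tumors, which do not overlap. How many of all genes separate in this way was not counted, so nothing is read from it.

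The enzymes that methylate homocysteine did not share a direction. Bhmt, which uses betaine (chr13:93616675-93637961, minus strand), was 2205 and 1318 CPM in the Ctnnb1-mutated tumors and 621, 729, 296, and 2937 CPM in the other 4. It was below the own liver in 6 of 6 mice, with log2 differences of -0.41 and -0.57 in the Ctnnb1-mutated tumors and -4.22 to -1.54 in the others. Between Ctnnb1-mutated and other tumors its log2 difference was 0.93 (SE 0.64, edgeR's adjusted p = 0.353). The block on the mouse gave 2.16 (SE 0.61, edgeR's adjusted p = 0.116). Gm5096 and Bhmt-ps1 match the Bhmt transcript at 99.36% over 1869 bases and 98.94% over 1224 bases. Neither is among the counted symbols, and how reads shared with them were treated is not known here. Bhmt2, which uses S-methylmethionine (chr13:93655720-93674302, minus strand), was 237, 240.2, 262, 284, 224, and 479 CPM in the 6 livers and 187, 178, 109, 187, 103, and 260.1 CPM in the 6 tumors. Each tumor was lower than its own liver, but TCi-HCA984 was above 3 of the livers of the other mice. Mtr, methionine synthase, which uses methyltetrahydrofolate and cobalamin (chr13:12182712-12258113, minus strand), was the only member higher than the own liver in 6 of 6 mice, with log2 differences of 0.014 to 1.23. Its level was low, 1.62 to 4.78 CPM in livers and 2.16 to 6.06 CPM in tumors, these ranges overlap, and its log2 difference in tumors of either class was not called.

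**Figure D4:**
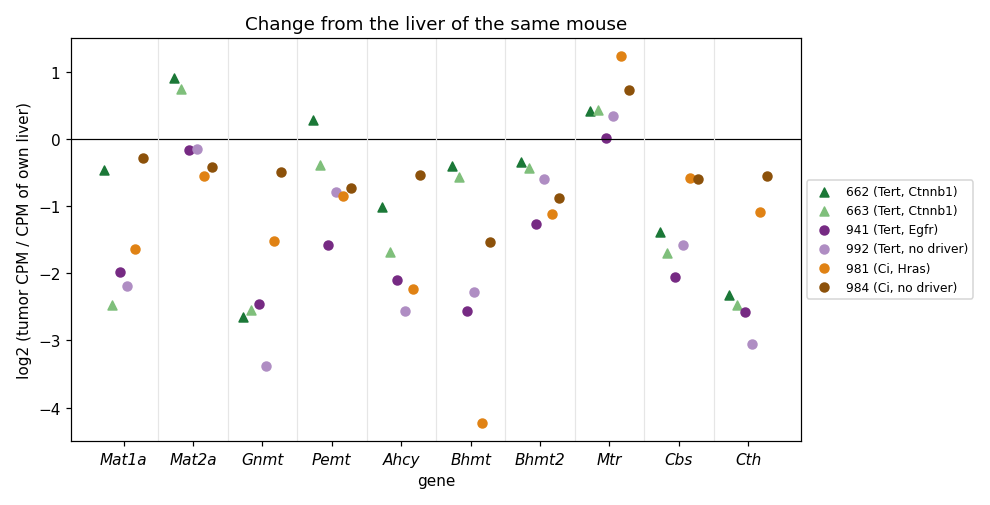
Log2 ratio of the CPM in each tumor to the CPM in the liver of the same mouse for the 10 members, with triangles for the Ctnnb1-mutated tumors and circles for the others. Mat2a is above 0 for both triangles and below 0 for the 4 circles, Mtr is above 0 for all 6 mice, and the lowest point is Bhmt in TCi-HCC981 at -4.22.

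Egfr- or Hras-mutated tumors (T-HCC941 and TCi-HCC981) were set against driver-negative tumors (T-HCA992 and TCi-HCA984). The former are carcinomas and the latter adenomas, so driver and diagnosis cannot be told apart here. Driver-negative means only without mutated Ctnnb1, Egfr, or Hras. For T-HCA992 the study reports frameshifts in Ppp1r9a and PtprE and an expression signature of MAPK activation. For TCi-HCA984 it reports a mutation of Ep300. No gene was called (0% of 15182), an unadjusted p under 0.05 was given to 8.77% of all genes and to 2 of the 10 members, and DESeq2 called 0.696% of the genes it adjusted and no member. The 2 members were Bhmt2 (log2 fold change -1.11, SE 0.37, edgeR's adjusted p = 0.524) and Bhmt (-2.04, SE 0.79, adjusted p = 0.541). The Egfr- or Hras-mutated tumors were lower than both driver-negative tumors in each of them, as in 20% of all genes tested. Mat1a had an estimate of -1.11 (SE 0.72), with 1151 and 1222 CPM against 813 and 4177 CPM.

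Around the members, 48 other genes of one-carbon and sulfur metabolism, written as a list from general knowledge with earlier results of these data known, were counted in the tests across all genes. In all tumors against all livers, 5 were higher and 8 lower, beside 6.77% and 3.91% of all genes, with a median log2 fold change of -0.22 against 0.01 over all genes. Smox, spermine oxidase, rose by 2.87 (SE 0.47, edgeR's adjusted p = 0.00274), from 2 to 5.72 CPM in livers to 11.4 to 68.9 CPM in tumors. The mitochondrial folate enzymes Mthfd1l and Mthfd2 rose by 2.44 (SE 0.42, adjusted p = 0.00398) and 2.05 (SE 0.40, adjusted p = 0.00676), and Enoph1 of the methionine salvage pathway rose by 0.68 (SE 0.20, adjusted p = 0.0494). Nnmt, which methylates nicotinamide with SAM, fell by 2.78 (SE 0.75, adjusted p = 0.0332), from 134 to 556 CPM in livers to 3.55 to 124 CPM in tumors. Aldh1l1 fell by 1.48 (SE 0.28, adjusted p = 0.00591), Sardh, sarcosine dehydrogenase, by 1.43 (SE 0.26, adjusted p = 0.00450), and Suox, sulfite oxidase, by 1.36 (SE 0.39, adjusted p = 0.0416). By group, 3 of 5 genes of choline oxidation fell, 2 of 10 folate genes rose and 2 fell, 2 of 11 genes of cysteine use fell and 1 rose, 2 of 11 genes of methionine salvage and polyamines rose, 1 of 7 SAM-dependent methyltransferases fell, and none of 4 genes of SAM and S-adenosylhomocysteine was called. The count of 13 called genes fell to 8 without the liver of T-HCC662 or without T-HCC941. The share of all genes called fell as well, from 10.7% to 6.14% and 6.75%.

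In Ctnnb1-mutated against other tumors, 5 of the 48 were higher and 2 lower, beside 6.76% and 5.72% of all genes. Csad, which makes hypotaurine from cysteine sulfinate, was higher by 2.09 (SE 0.26, edgeR's adjusted p = 0.000843). It was 634 and 369 CPM in T-HCC662 and T-HCC663 and 74.3 to 194 CPM in the other tumors. Tst, a thiosulfate sulfurtransferase, was higher by 1.70 (SE 0.30, adjusted p = 0.00649), and Suox by 1.46 (SE 0.32, adjusted p = 0.0166). Against the livers, the log2 estimates of Suox were -0.64 (SE 0.33) in Ctnnb1-mutated and -2.10 (SE 0.27) in the other tumors. Suox was thus estimated below liver in both classes. For Tst these estimates were 0.57 (SE 0.29) and -1.13 (SE 0.24). Sqrdl, sulfide quinone oxidoreductase, was lower by 1.42 (SE 0.29, adjusted p = 0.0123), and Mtap, which recycles methylthioadenosine, by 1.36 (SE 0.31, adjusted p = 0.0181). With the mouse as a block, 1 of the 7, Csad, was called (adjusted p = 0.0239), and without T-HCC662 the fit called 1 of the 48. These fits called 2.9% and 2.76% of all genes, against 12.5% in the main fit.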

How the data were processed

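RNA from 6 liver tumors and 6 non-tumoral livers was analysed. The authors filtered reads of low quality, aligned the rest to mm10 plus mCherry with Subread, and assigned reads to genes with featureCounts 1.6.4. The deposited values are raw counts for 24421 symbols. The annotation release, strand setting, and treatment of reads with several alignments are not given in the sources used here. The authors corrected for the sequencing run, which is not given per sample in the sources used here, so that step was not repeated. The libraries may thus come from several runs. Without the mouse as a block, p-values measure the spread between libraries. Mouse and run are not separated in that spread, nor is driver where a group mixes drivers.

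Counts were scaled by TMM with edgeR 4.0.16 (R 4.3.3), filtered with filterByExpr, and tested with its quasi-likelihood F test, with Benjamini-Hochberg adjustment over all genes and a threshold of 0.05. Standard errors (SE) were obtained from the log2 fold change and the F statistic. CPM uses the TMM-scaled totals. Models held all 12 libraries, grouped by genotype and tissue or by tumor class, so that groups of 2 libraries shared an estimate of the spread. The fits were also run on simulated counts drawn independently for each library. These counts held no mouse pairs, run effects, or mixed drivers, so they do not speak to those sources of spread. Alternatives were RLE size factors, DESeq2 1.42.0, no filter, fits on the libraries compared, the mouse as a block, and leaving out each library. The members and gene lists were chosen with earlier results of these data known. Named from the list of 48 genes were up to 4 called genes per direction with the largest change, and for Cth and Gnmt the 5 genes of highest r. A gene that this rule names is not reported here. Allele, sex, and class markers were checks.

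Tumors and livers with the same number come from the same mouse. Over 13822 genes, the deviations of a tumor and its own liver from their group means were correlated. In the order of the report, r was 0.19, 0.05, 0.04, 0.44, 0.55, and 0.55. The last 2 mice share a value because those groups hold 2 mice. The median r with the livers of the other mice was -0.042, 0.074, -0.031, -0.109, -0.100, and -0.115. For T-HCC663 the own liver thus lay below that median. Exon lengths, overlaps, and positions are from GENCODE M21 (GRCm38), and similar transcripts were sought with minimap2 2.31-r1302 at 95% identity over at least 200 bases. Of 10 members, 8 had a promoter in the RefSeq table, and Cth and Mat1a did not.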

Additional observations from a re-analysis of the deposited data

Results flagged for a closer look

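Within the 2 groups of 4 libraries, 20 sets of member values were searched for a sample far from the other 3, and chance would mark about 1 in 20. The liver of T-HCA992 stood apart for Cth, at 557 CPM against 423 to 441 CPM in the other 3 livers. T-HCC941 stood apart for Bhmt2, at 109 CPM against 178 to 187 CPM in the other 3 p21+/Tert tumors.

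The change of Mat2a from the own liver had opposite signs in the 2 Ctnnb1-mutated and the 4 other tumors. The difference of these changes, fitted with the mouse as a block, was 1.14 on the log2 scale (SE 0.27, edgeR's adjusted p = 0.0758), which misses the threshold.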

How the results depend on the processing

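With RLE size factors or without the filter on low counts, no count of called members or listed genes moved by over 1.5 times, and in p21+/TertCi tumors against livers 1 and 2 genes were called in place of 0 (7 without TCi-HCA984), none a member. With the mouse as a block, the members called went from 4 to 7 in all tumors against all livers and from 2 to 0 in Ctnnb1-mutated against other tumors, where the other listed genes called went from 7 to 1. Leaving out also the mouse of T-HCC662, whose pairing the labels do not give, these were 8, 0, and 0, and p21+/Tert tumors against livers went from 3 to 5. The shares of all genes called in these fits were 15.9% and 2.9% with the block and 13.4%, 0.487%, and, in p21+/Tert tumors, 4.3% without that mouse. DESeq2 gave 5 members in p21+/Tert tumors (14% of all genes), 7 in all tumors (17.5%), 1 between the livers (0.315%), and 12 listed genes between tumor classes (20.6%). The tumor libraries alone gave 0 called members between classes (5.68% of all genes), and the p21+/Tert tumors alone gave 1 (5.17%). No block could be fitted between livers of different mice, and the block ended no other call. The cause of these changes was not tested.

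Leaving out 1 library at a time, the called members ranged from 3 to 5 in p21+/Tert tumors, 3 to 7 in all tumors (7 without TCi-HCA984), and 0 to 3 between Ctnnb1-mutated and other tumors, and the listed genes from 8 to 18 (18 without T-HCC662) and from 1 to 9 in the last 2 comparisons. In the same order, the share of all genes called ranged from 1.58% to 7.89%, 6.14% to 14.2%, and 2.76% to 10.5%. No member was called in the other 3 comparisons under any omission, where at most 5 genes were called between Egfr- or Hras-mutated and driver-negative tumors (without T-HCC941).

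Some uncalled estimates changed sign. For Ctnnb1-mutated against other tumors, the block gave -0.64 for Gnmt (-0.58 without the mouse of T-HCC662) and 0.052 for Mat1a, and the p21+/Tert tumors alone gave 0.26 for Cth, 0.019 for Cbs, and 0.58 for Mat1a. For Egfr- or Hras-mutated against driver-negative tumors, the block gave -0.063 for Cth, -0.26 for Cbs, -0.085 for Gnmt, and 0.076 for Mtr (-0.066, -0.26, -0.089, and 0.074 without that mouse). Mat2a in all tumors against livers became -0.12 without it. With 1 library left out, estimates ranged from -0.094 to 0.60 for Mtr in p21+/Tert tumors against livers, -0.93 to 0.18 for Bhmt2 between livers, and -0.058 to 0.24 for Mat2a in all tumors against livers. Between Ctnnb1-mutated and other tumors they ranged from -0.42 to 0.087 for Cbs, -0.13 to 0.31 for Gnmt, and -1.51 to 0.58 for Mat1a. Between Egfr- or Hras-mutated and driver-negative tumors they ranged from -0.51 to 0.79 for Cth, -0.56 to 0.46 for Cbs, -0.14 to 0.59 for Gnmt, -1.86 to 0.52 for Mat1a, -1.23 to 0.69 for Ahcy, -0.85 to 0.056 for Pemt, and -0.55 to 0.42 for Mtr. Adding 0.5 to each count moved no Mat2a to Mat1a ratio beyond the spread of the livers. Groups of 2 libraries and the low counts of Mtr limit what could be detected.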
